A study of Mus musculus with 12 samples.

Results

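The respiratory chain of the hippocampus was described from 107 protein-coding rows of the 54532 genes listed. They were chosen by name alone, to cover the nuclear genes for subunits of complexes I to V and the protein-coding genes of the mitochondrial genome. The nuclear names were those starting Ndufa, Ndufb, Ndufc, Ndufs or Ndufv, Sdha to Sdhd, Uqcr, Cox4 to Cox8, and Atp5. They also take in complex I assembly factors, Atp5s, which is not a subunit, and the supercomplex factor Cox7a2l, counted under complex IV. The complex III gene Cyc1 is missed by these names. Of the 107 rows 94 are nuclear and 13 mitochondrial. The RNA was polyadenylated RNA of whole hippocampi from 15-day-old C57BL/6J pups. All pups were injected on 2 days, subcutaneously on postnatal day 3 and intraperitoneally on day 14, and were sampled 24 h after the later injection. What differed was whether an injection held saline or lipopolysaccharide (LPS, the bacterial endotoxin, 5 mg/kg). The SL group had saline first and LPS second, the LS group LPS first and saline second, the LL group LPS at both ages and the SS group saline at both ages, with 3 animals in each. The labels do not give the sex of the pups. Whole tissue was sequenced, so that fewer cells of a type and less RNA per cell cannot be told apart.

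Oxidative phosphorylation passes electrons from NADH through complex I, or from succinate through complex II, to ubiquinone, then through complex III and cytochrome c to complex IV, which reduces oxygen, and complex V uses the resulting proton gradient to make ATP. Complexes I, III, IV and V are built from subunits of both genomes, while complex II is wholly nuclear. The mitochondrial genes are read from long polycistronic transcripts, whereas the nuclear genes lie on many chromosomes and are often activated by NRF1, GABPA (an ETS factor) and YY1. Neurons draw most of their ATP from this pathway, and activated myeloid cells and astrocytes use more glycolysis.

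Levels are in the FPKM that the authors deposited, that is, fragments divided by gene length and library size. Fold changes are differences of log2(FPKM + 0.5), which understates the change of low genes, and a gene is called where its limma p adjusted over all 17687 genes tested is under 0.05. Of the members, 104 were tested: 36 nuclear subunits of complex I, 8 complex I assembly factors (Ndufaf genes), 4 subunits of complex II, 8 of complex III, 18 of complex IV, 16 of complex V, Atp5s, and the 13 mitochondrial genes. Not tested were Cox7b2, at most 0.594 FPKM, Cox8c, with 1 fragment in 1 SS library, and a second row named Atp5o, listed at 0 in all 12 libraries.

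The libraries held 16979666 to 24105022 fragments in listed genes, with 18258513 to 20801651 in SL, 18549883 to 20012420 in LS, 21926635 to 24105022 in LL and 16979666 to 18425733 in SS. Hippocampal neuron markers were present in every library, with Slc17a7 at 274 to 358 FPKM and Neurod6 at 86.7 to 109. SS replicate 2 stood apart for the respiratory chain: it held the highest level of 66 of the 91 nuclear members tested and of 9 of the 13 mitochondrial genes. LS replicate 1 held the lowest level of 38 nuclear members. Summed marker levels moved between groups as well. The 15 choroid plexus markers summed to 677 to 939 FPKM in SL, 2392 to 3453 in LL and 2349 to 2799 in SS, and their defining gene Ttr stood at 1088, 47.7 and 14.9 FPKM in the LS libraries, against 2093 to 2455 in SS, while the whole list summed to 38.1 to 1231 in LS. The 5 neutrophil markers summed to 107 to 224 FPKM in SL, 1.43 to 1.97 in LS, 3.37 to 5.47 in LL and 0.698 to 1.70 in SS, while the 8 excitatory neuron markers summed to 1932 to 2267 in SL, 1919 to 2372 in LS, 2009 to 2137 in LL and 2125 to 2248 in SS. The 6 astrocyte markers summed to 839 to 1022 FPKM in SL, 539.5 to 548 in LS, 526 to 587 in LL and 509 to 534 in SS, and the 5 red cell markers to 57.7 to 93.3 in SL, 177 to 266 in LS, 77.8 to 140 in LL and 198 to 233 in SS. The 11 myelin markers summed to 936 to 1359 FPKM in SL, 802 to 966 in LS, 602 to 898 in LL and 1197 to 1310 in SS, and the 6 microglia markers to 64.8 to 80.9 in SL, 85.3 to 90.5 in LS, 113 to 116 in LL and 73.8 to 78.6 in SS. The part of these differences in the results that follow was not tested. Values without a library or with a choroid plexus term are given as descriptions. The choroid plexus score, the mean log2 level of its markers, was 3.26 to 3.63 in SS and 1.79 to 2.03 in SL. A term for this score therefore cannot separate choroid plexus content from the injections.

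Respiratory chain genes were among the most abundant transcripts of this tissue. The mitochondrial genes mt-Co1, mt-Cytb and mt-Nd1, which encode the catalytic subunit of complex IV, cytochrome b of complex III and a membrane subunit of complex I, ranked 1, 2 and 3 of all listed genes by mean FPKM, at 6597, 4622 and 4105 FPKM over the 12 libraries. The nuclear genes were led by Cox6a1 at 449.7 FPKM, Cox8a at 433 and Cox4i1 at 269, the common isoforms of small subunits of complex IV. Complex V was led by Atp5a1 at 259 and Atp5b at 249.6, its alpha and catalytic beta subunits, and complex III by Uqcr11 at 183 and Uqcr10 at 151, both small accessory subunits. In complex II the flavoprotein Sdha, which oxidises succinate, led at 85.8 FPKM and was followed by the membrane anchor Sdhd at 59.8. In complex I the highest nuclear genes were the accessory subunits Ndufa8 at 119 and Ndufb6 at 109 FPKM, and the lowest were Ndufb2 at 4.19 and Ndufab1 at 5.02. FPKM divides by the listed gene length, and by fragments the gap was smaller. Ndufa8 held 1672 to 2529 fragments per library, Ndufb2 377 to 568 and Ndufab1 571 to 937. Assembly factors, which help to build complex I and do not stay in it, were lower than most subunits. They ran from 3.81 FPKM for Ndufaf2 to 12.2 for Ndufaf8, a range that includes Ndufb2 and Ndufab1.

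The 13 mitochondrial genes fell into a high and a low set on this per-length scale. In the high set, mt-Co1, mt-Cytb, mt-Nd1, mt-Nd2, mt-Nd4, mt-Nd5 and mt-Nd6 lay between 1116 and 7080 FPKM in every library. In the low set, the complex IV subunit mt-Co2 averaged 191 FPKM, the complex V subunit mt-Atp6 135, the complex IV subunit mt-Co3 124, the complex I subunits mt-Nd4l 84.8 and mt-Nd3 41.6, and the complex V subunit mt-Atp8 4.70. A near-identical copy annotated on chromosome 1 (between 24612407 and 24615565, mm10) was found for all of the low set but mt-Atp8. A fragment of the mitochondrial genome lies there in the nuclear genome. Only annotated transcripts were searched, so a copy of mt-Atp8 without an annotated gene would have been missed. The copies of mt-Co2, mt-Co3, mt-Atp6 and mt-Nd4l (Gm28661, Gm28437, Gm10925 and Gm10222) have 0 differences over the 681, 783, 678 and 294 bases aligned, and they were themselves listed at 84.6, 90.6, 91.0 and 35.4 FPKM on average. The copy of mt-Nd3, Gm28438, carries 1 difference over 345 aligned bases. The start of that gene is shown with its copy, in which the differing base is in capitals (T3C, counted from the first base of mt-Nd3), together with a stretch of mt-Co2 and of its copy without any difference, all from GENCODE vM21 transcripts on the strand of the gene:
mt-Nd3 (mitochondrial chromosome, 9459 to 9806): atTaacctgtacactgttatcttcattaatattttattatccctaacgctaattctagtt
Gm28438 (chromosome 1, 24612775 to 24613119): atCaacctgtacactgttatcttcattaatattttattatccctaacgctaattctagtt
mt-Co2 (mitochondrial chromosome, 7013 to 7696): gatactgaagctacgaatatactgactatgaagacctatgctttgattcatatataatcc
Gm28661 (chromosome 1, 24614885 to 24615565): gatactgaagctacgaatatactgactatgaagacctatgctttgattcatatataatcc
In the high set mt-Nd4 and mt-Co1 also have copies there, Gm28439 with 0 differences over 876 bases and Gm29216 with 6 over 492, but these copies were listed at 22.997 and 43.2 FPKM on average and took 0.732% and 0.209% of the fragments of each pair. A read from a stretch without differences fits both places. The sources used here do not give how the authors treated such reads. The levels of the 5 genes of the low set with a copy found are therefore uncertain. Those of mt-Nd4 and mt-Co1 are uncertain to the extent that reads were shared, and that of mt-Atp8 if it has a copy without annotation. mt-Atp8 overlaps mt-Atp6 and mt-Nd4l overlaps mt-Nd4, which makes these counts uncertain too. mt-Nd6 lies on the other strand, beside mt-Nd5, and no source used here gives the strand setting of the counting.

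**Figure D1:**
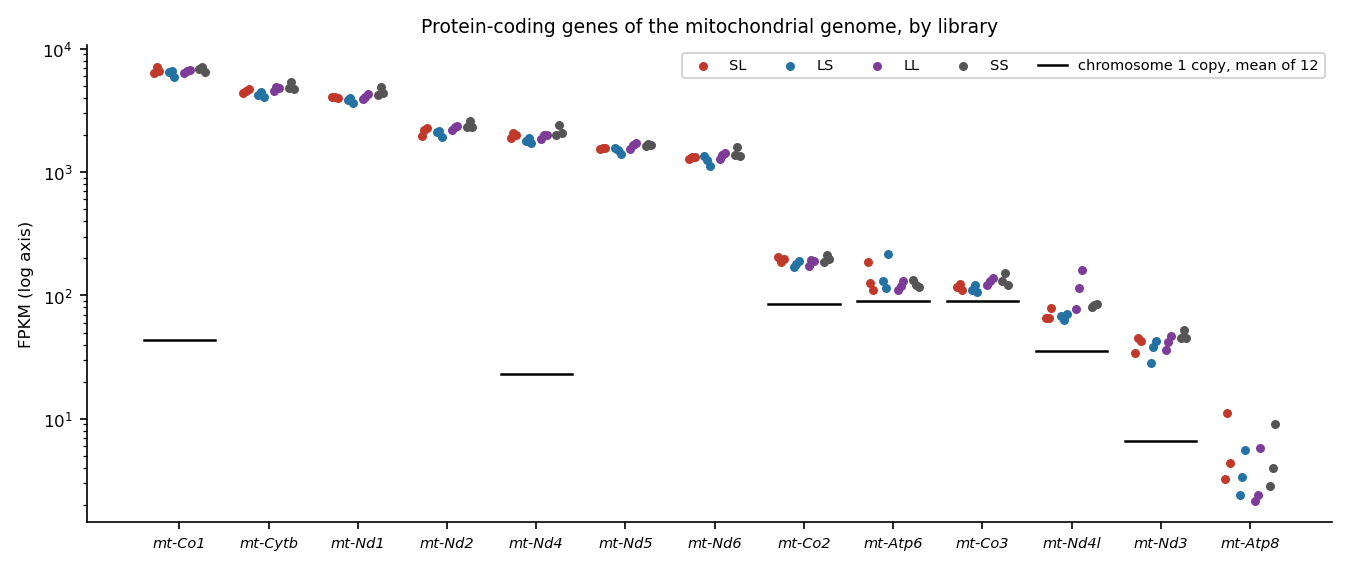
FPKM of each of the 13 protein-coding mitochondrial genes in the 12 libraries on a log axis, coloured by group, with black lines for the mean level of the near-identical gene on chromosome 1 where there is one. Genes from mt-Co1 to mt-Nd6 lie at 1116 FPKM or more in every library, and mt-Co2, mt-Atp6, mt-Co3, mt-Nd4l and mt-Nd3, whose copies are listed at levels closest to their own, reach at most 218 FPKM.

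The libraries differed little in how much of them was respiratory chain. Mitochondrial members took 2.77%, 2.85% and 2.81% of fragments in SL, 2.76%, 2.79% and 2.49% in LS, 2.81%, 2.93% and 2.96% in LL, and 2.96%, 3.17% and 2.90% in SS. All SL and LS libraries lay below all SS libraries, while LL overlapped with SS. Nuclear members took 0.940%, 0.928% and 0.926% in SL, 0.928%, 1.02% and 0.970% in LS, 1.002%, 0.956% and 0.968% in LL, and 0.995%, 1.10% and 1.02% in SS. Here only SL lay wholly below SS. The mean FPKM of mitochondrial members was 27.6 to 28.7 times that of nuclear members in SL, 24.5 to 29.0 times in LS, 26.3 to 29.2 times in LL and 26.6 to 28.0 times in SS. These ranges overlap in every pair of groups, so the groups were not told apart by this ratio. The mitochondrial share and the ratio include the mitochondrial genes whose levels are uncertain, so their size is uncertain too.

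**Figure D2:**
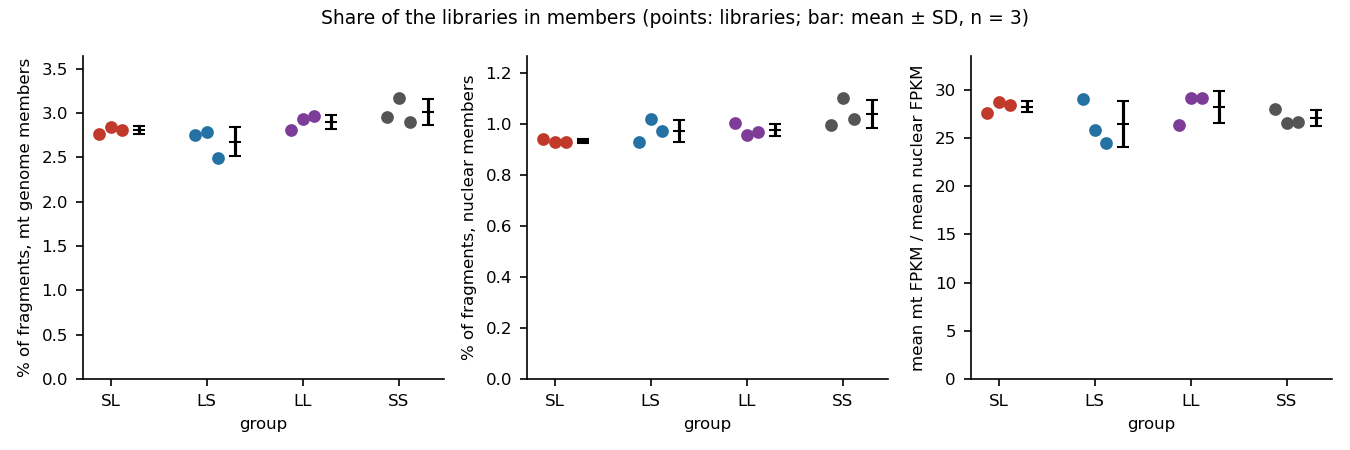
Share of each library's fragments in mitochondrial members, share in nuclear members, and the ratio of their mean FPKM, by group, with points for libraries and bars for mean ± SD (n = 3). Both shares are lower in SL than in SS in every library, and the ratio overlaps between all groups.

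SL was set against SS to ask what LPS on day 14 did in pups that had not met it before. Estimates for the respiratory chain were slightly below 0 in SL hippocampi across the nuclear complexes, with a median change of -9.89%, and complexes II and V held 9 of the 14 calls. Limma called 14 of the 104 members lower and 0 higher, a share of 13.5%, where 3.77% of all genes tested were called lower and 7.06% higher. The estimate was below 0 for 98 of the 104 members, which is 94.2% of them against 51.1% of all genes. For 53 members every SL library lay below every SS library, which is 51.0% of them against 12.5% of all genes, and 0 members stood apart the other way, against 13.8% of all genes. Either way, 10.8% of all genes were called. The median log2 change was -0.15 over the nuclear members and -0.004 over all genes tested. Members share libraries and depth, so these counts describe 6 animals and are not separate observations.

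Complex II, which links the citrate cycle to the chain, had 3 of its 4 subunits called lower. The iron-sulfur subunit Sdhb was at 34.8, 39.1 and 39.3 FPKM in SL, against 43.2, 44.1 and 43.3 in SS. No SL library reached the SS range, and the log2 change was -0.21 (SE 0.05, limma adjusted p = 0.0235). The membrane anchor Sdhd was at 52.5, 56.5 and 54.9 FPKM in SL, against 61.8, 62.1 and 62.8 in SS, again without overlap (-0.19, SE 0.05, limma adjusted p = 0.0327). The other anchor, Sdhc, was at 20.3, 19.0 and 19.5 FPKM in SL, against 22.9, 25.1 and 23.5 in SS (-0.27, SE 0.07, limma adjusted p = 0.0392). Sdha, the largest subunit, did not pass the test, with a log2 change of -0.09, although its SL libraries also lay below its SS libraries. The complex II calls rest on few libraries: limma called 0 of the 4 subunits without any single SS library, without SL replicate 1, or with a term for the choroid plexus markers.

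Complex V, the ATP synthase, had 6 of 16 subunits called lower, and for 14 of 16 the SL libraries lay wholly below the SS libraries. Atp5d, the delta subunit of the rotor stalk, was at 75.2, 84.5 and 83.0 FPKM in SL, against 94.3, 105 and 98.6 in SS. The highest SL library lay well below the lowest SS library, and the log2 change was -0.30 (SE 0.06, limma adjusted p = 0.00744). The catalytic subunit Atp5b was at 232, 242 and 232 FPKM in SL, against 259, 268 and 257 in SS (-0.15, SE 0.04, limma adjusted p = 0.0270). Atp5g3, 1 of several genes for the ring-forming subunit c, was at 88.6, 86.1 and 81.4 FPKM in SL, against 95.01, 109 and 97.2 in SS (-0.23, SE 0.06, limma adjusted p = 0.0318). Atp5g1, another gene for subunit c, fell by 0.26, Atp5l, the membrane subunit g, by 0.25, and Atp5f1, subunit b of the peripheral stalk, by 0.17 on the log2 scale. The last 3 have copies of 98.7% to 100% identity, among them Gm10039, Gm10221 and Gm12231. With its copy added, Atp5g1 came to 176, 182 and 178 CPM (fragments scaled to library size only) in SL, against 213, 221 and 218 in SS, and Atp5l with its copies to 97.4, 95.6 and 103 CPM in SL, against 109, 130 and 114 CPM in SS. Both sums keep the groups apart.

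Complex III had 1 of 8 nuclear members called, Uqcrfs1, the Rieske iron-sulfur protein that hands electrons to cytochrome c1. It was at 69.8, 72.0 and 71.3 FPKM in SL, against 81.5, 83.9 and 76.9 in SS. These groups do not overlap, and the log2 change was -0.18 (SE 0.04, limma adjusted p = 0.0207). For each of the 8 nuclear members of this complex the SL libraries lay below the SS libraries, and the median log2 change was -0.18. Uqcr10 had the lowest estimate, -0.31, at 138, 131 and 143 FPKM in SL, against 154, 194 and 165 in SS, and did not pass the test (limma adjusted p = 0.0782).

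Complex IV gave the largest folds, and they were in isoform genes at low level. Cox6b2, an isoform of subunit 6b best known from testis, was at 2.38, 1.78 and 1.80 FPKM in SL, against 6.15, 5.12 and 4.45 in SS. The lowest SS library stood well above the highest SL library, and the log2 change was -1.20 (SE 0.15, limma adjusted p = 0.000233). Cox4i2, an isoform of subunit 4 known from lung and from the pericytes and smooth muscle of vessels, was at 0.359, 0.790 and 0.492 FPKM in SL, against 2.01, 1.40 and 1.24 in SS (-0.97, SE 0.19, limma adjusted p = 0.00532). These Cox4i2 levels rest on 6, 12 and 7 fragments in SL and on 27, 19 and 18 in SS. Of 7 mural cell markers, chosen after values were seen, 3 were called lower (Vtn, Rgs5 and Higd1b) and 0 higher. Of the others, Kcnj8 was at 2.13, 2.40 and 2.26 FPKM in SL, against 1.96, 1.52 and 1.61 in SS, which is higher without overlap but not called (0.33, limma adjusted p = 0.0966), and Abcc9, Pdgfrb and Notch3 overlap between the groups. The 7 summed to 51.0 to 59.2 FPKM in SL, 73.4 to 78.9 in LS, 72.0 to 84.5 in LL and 70.3 to 81.1 in SS. Their part in the change of Cox4i2 was not tested. Of the common isoforms, Cox4i1 had a log2 change of -0.05 and Cox6b1 of -0.28, and neither passed the test. Cox6b2 accordingly made up 1.29%, 0.925% and 0.974% of the summed FPKM of Cox6b1 and Cox6b2 in SL, against 2.85%, 1.91% and 2.13% in SS. The third call was Cox7b, a small subunit on the X chromosome, at 76.8, 83.3 and 85.7 FPKM in SL, against 90.7, 106 and 98.1 in SS (-0.26, SE 0.07, limma adjusted p = 0.0431).

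Complex I is the largest complex, and 0 of its 36 nuclear subunits were called by limma, although 35 had an estimate below 0, 11 had an unadjusted p under 0.05 (30.6%, against 22.6% of all genes). This count of 0 depended on the setting. Limma voom on whole fragments called Ndufa3 and Ndufb10, quantile normalization 3 and median centring 3 subunits. With the choroid plexus term limma called 10 of the 36, against 0 of 4 in complex II and 3 of 16 in complex V, so that the order of the complexes by calls turns round. The median log2 change was -0.13. Accessory subunits gave the lowest estimates, such as Ndufa3 at 64.7, 66.1 and 74.1 FPKM in SL, against 73.3, 98.7 and 81.5 in SS, a log2 change of -0.30. The groups overlap for Ndufa3, since the highest SL value exceeds the lowest SS value. The exception above 0 was Ndufa12, an accessory subunit, at 17.01, 33.4 and 44.4 FPKM in SL, against 16.7, 22.2 and 19.9 in SS. Its processed pseudogene Gm15920, 99.5% identical, holds 44.8% of the fragments of the pair, and together the pair came to 66.7, 75.9 and 87.1 CPM in SL, against 60.1, 79.2 and 75.4 CPM in SS, which overlap. Of the 8 assembly factors 1 was called lower, Ndufaf8, at 11.3, 12.002 and 10.8 FPKM in SL, against 12.8, 14.5 and 15.1 in SS (-0.30, SE 0.07, limma adjusted p = 0.0240).

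The mitochondrial genome had 0 of 13 genes called in SL against SS, both by limma (1 at an unadjusted p under 0.05) and by voom. The median log2 change was -0.13, close to that of nuclear complex I, and 11 of 13 estimates were below 0. mt-Co1 was at 6354, 7060 and 6645 FPKM in SL, against 6904, 7080 and 6530 in SS, and the groups overlap (-0.03, SE 0.10). mt-Nd1 was at 4027, 4062 and 4012 FPKM in SL, against 4226, 4928 and 4343 in SS, without overlap but with an SE of 0.09 for a log2 change of -0.15. Quantile normalization sets the median of these abundant genes to 0.00. It gives each rank the same value in every library, so genes that keep the top ranks cannot differ. That 0.00 therefore cannot decide whether they changed. Over the scalings used the median lay between -0.18 and 0.00.

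SS replicate 2, the library highest in these genes, carried much of the count of calls. Without it limma called 3 members, Atp5d, Cox4i2 and Cox6b2, and the nuclear median was -0.10 with 79 of 91 estimates below 0. The count was 4 without SL replicate 1, 5 without SL replicate 3, 7 without SS replicate 3 and 9 without LL replicate 3, and it was 6 with only the SL and SS libraries in the fit. With a term for the choroid plexus markers the count was 21, of which 4 are among the 14, and the nuclear median was -0.26. Most nuclear estimates lay below 0 in each of the 24 other settings, with 79 the lowest count and 89 the highest. Complexes II and V had medians of -0.19 and -0.17 without SS replicate 2.

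**Figure D3:**
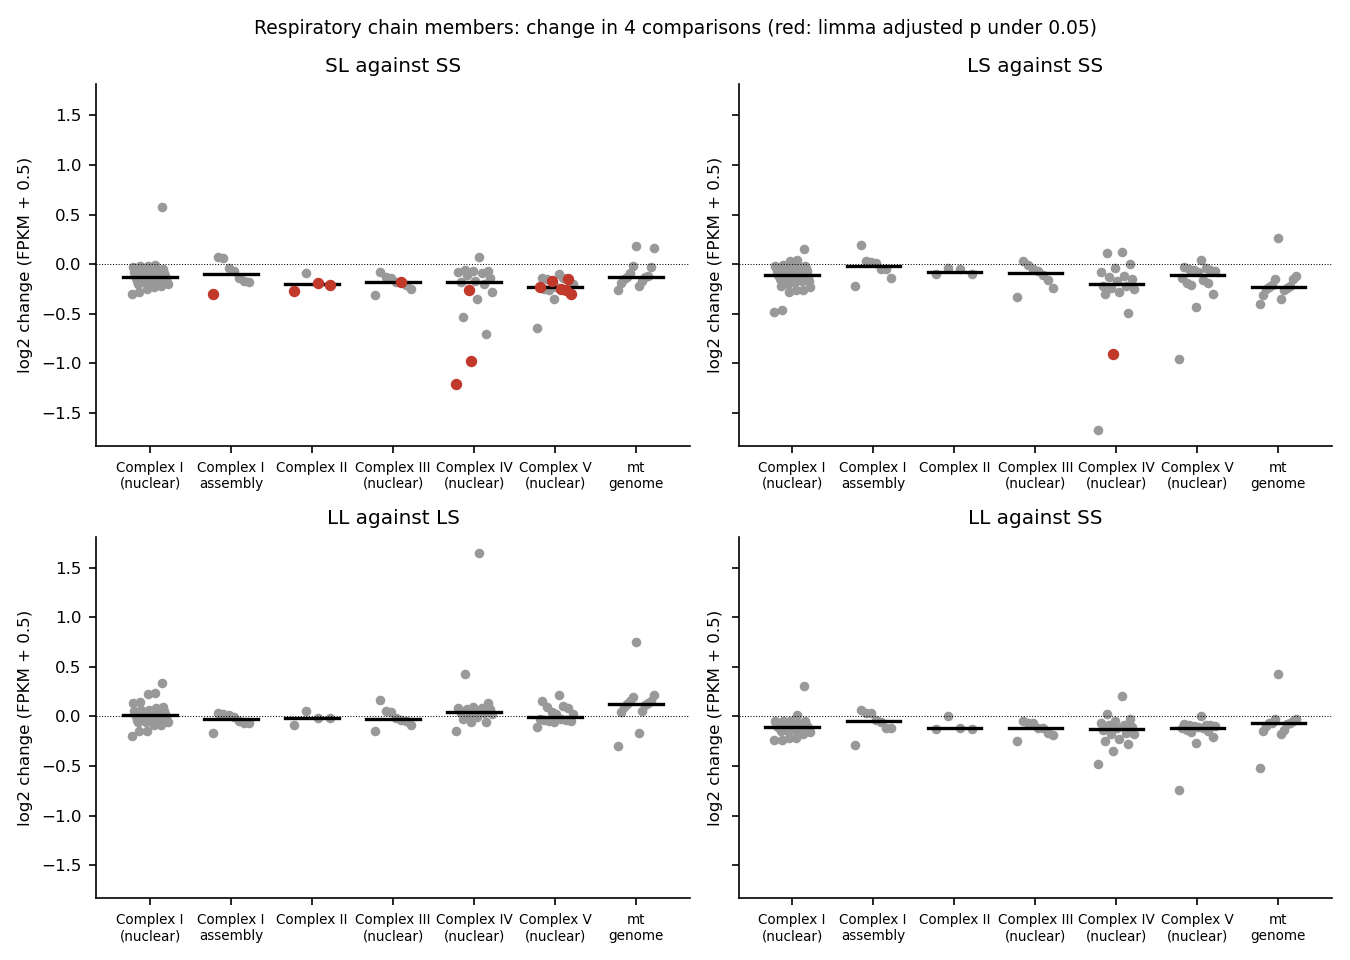
Log2 change of each tested member by complex in 4 comparisons, with red points for genes called by limma (adjusted p under 0.05) and lines for class medians. In SL against SS nearly all points lie below 0 and 14 are red, while in LL against LS the medians of the nuclear classes lie between -0.03 and 0.05, that of the mitochondrial genes lies at 0.13, and no point is red.

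**Figure D4:**
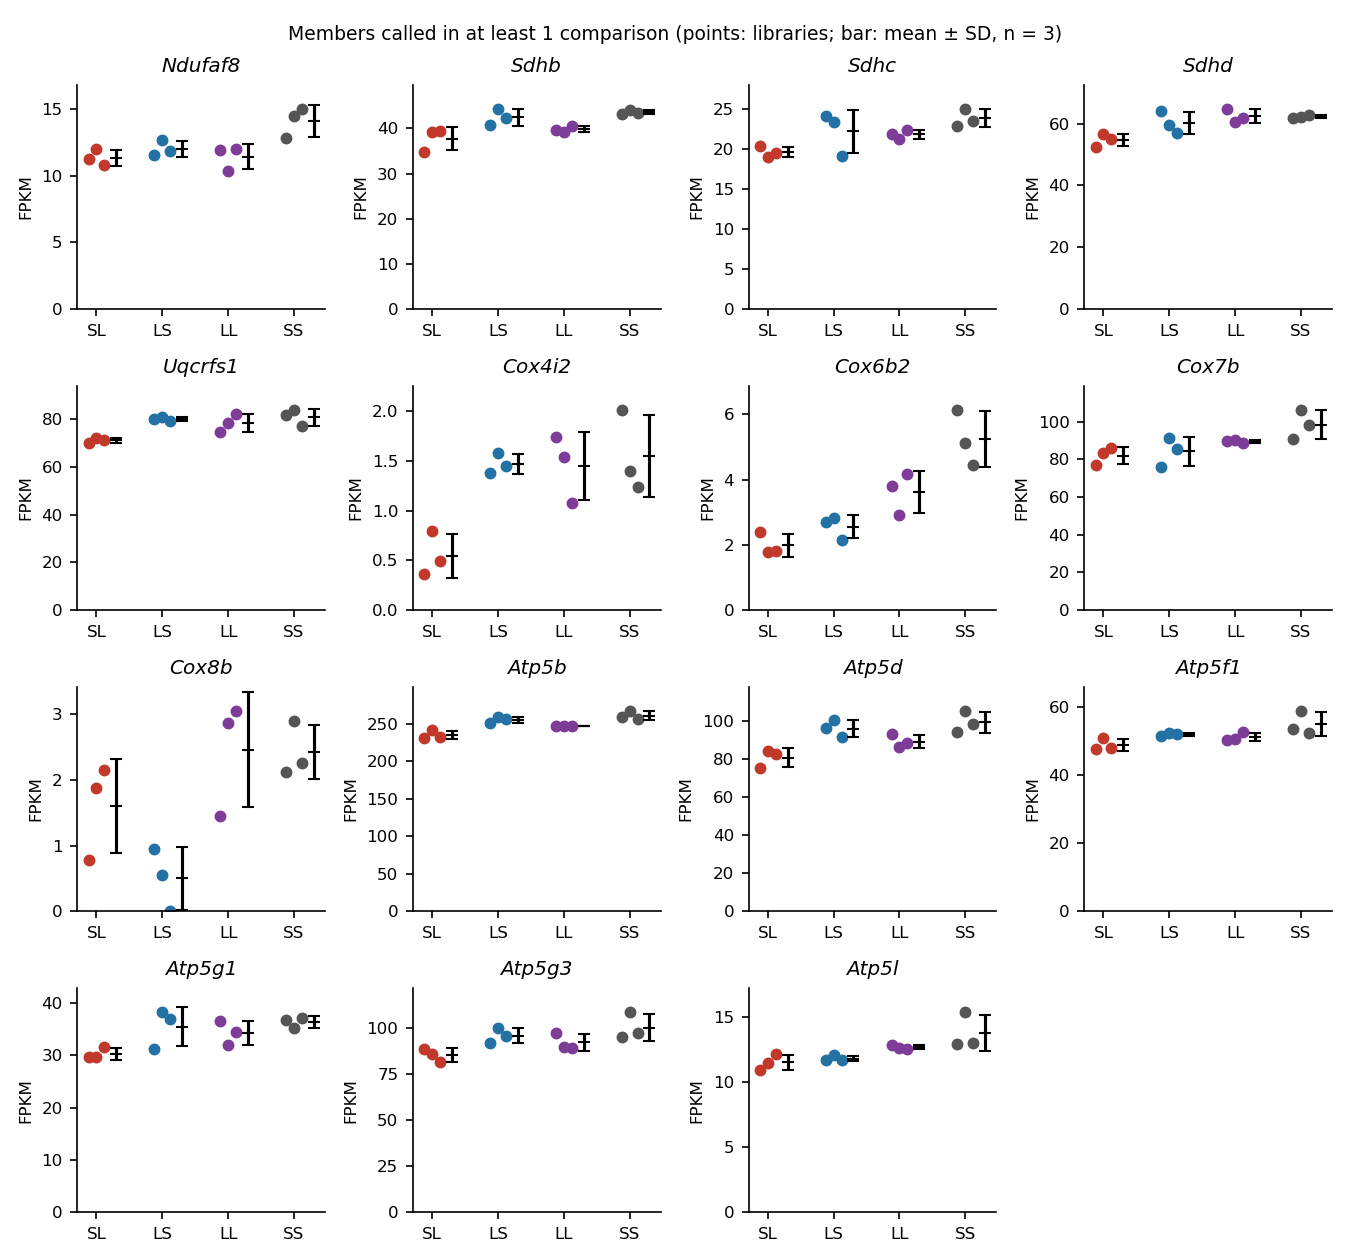
FPKM by library of the 15 members called in at least 1 comparison, with bars for mean ± SD (n = 3 per group) and axes from 0. Most subunits are lowest in SL and highest in SS, Cox6b2 is lower in SL and LS than in LL and SS, and Cox8b has its lowest mean in LS.

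The promoters of the called genes were read from RefSeq (GRCm38.p6), as 250 bases before to 50 after the start, to show where motifs of the nuclear activators of this pathway lie. The motifs searched on both strands were the palindromic NRF1 motif and its core GCATGCGC (which lies within it), CCGGAAG for ETS factors such as GABPA, and AAGATGGC for YY1. A window was matched for 74 nuclear members by symbol. The NRF1 core was in 16.2% of them and in 3.05% of all 27025 genes with a window, the longer NRF1 motif in 9.46% and 1.07%, the ETS motif in 24.3% and 9.93%, and the YY1 motif in 13.5% and 3.19%. Of the 14 genes called lower in SL, 11 had a window. Of these 2 hold the NRF1 core, 4 the ETS motif and 1 the YY1 motif, with more than 1 motif in some windows. The windows of Atp5b, Atp5d, Atp5g1, Atp5g3, Cox6b2, Cox7b and Uqcrfs1, most of those matched, hold none of these motifs. A match describes letters and is not a site. The windows of Sdhb, Atp5l and Sdhd are shown because they hold such motifs, in capitals, and that of Cox6b2 because the largest change belongs to a window without any:
Sdhb (chr4:140961021-140961320, + strand): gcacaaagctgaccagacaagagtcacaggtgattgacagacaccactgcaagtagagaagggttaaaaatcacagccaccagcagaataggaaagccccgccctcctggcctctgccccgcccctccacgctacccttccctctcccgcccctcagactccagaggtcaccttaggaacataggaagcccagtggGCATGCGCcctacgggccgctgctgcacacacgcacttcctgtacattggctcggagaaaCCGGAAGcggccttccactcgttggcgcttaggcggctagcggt
Atp5l (chr9:44920693-44920992, - strand): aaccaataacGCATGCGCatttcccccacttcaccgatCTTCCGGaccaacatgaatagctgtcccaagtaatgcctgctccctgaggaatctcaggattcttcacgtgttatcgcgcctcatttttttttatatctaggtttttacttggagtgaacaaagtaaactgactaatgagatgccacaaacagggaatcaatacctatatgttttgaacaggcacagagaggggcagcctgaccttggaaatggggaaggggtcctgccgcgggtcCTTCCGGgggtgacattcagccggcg
Sdhd (chr9:50603800-50604099, - strand): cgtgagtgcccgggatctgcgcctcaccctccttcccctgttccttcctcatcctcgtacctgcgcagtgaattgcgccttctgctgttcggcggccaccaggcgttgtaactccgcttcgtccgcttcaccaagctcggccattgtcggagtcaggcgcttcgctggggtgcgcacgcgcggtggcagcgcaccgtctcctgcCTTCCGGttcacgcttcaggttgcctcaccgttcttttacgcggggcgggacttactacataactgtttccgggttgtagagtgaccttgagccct
Cox6b2 (chr7:4753045-4753344, - strand): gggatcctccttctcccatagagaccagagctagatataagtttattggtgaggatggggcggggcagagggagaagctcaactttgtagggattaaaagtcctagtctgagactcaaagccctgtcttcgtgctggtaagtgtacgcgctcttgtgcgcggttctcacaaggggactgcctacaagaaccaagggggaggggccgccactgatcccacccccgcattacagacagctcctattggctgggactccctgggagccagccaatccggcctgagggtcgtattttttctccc
In Atp5l, at both places, and in Sdhd the ETS motif lies on the strand opposite to the gene, and in Sdhb it lies on the strand of the gene, just after the start.

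Genes next to the chain in the same pathway were compared through lists, which were chosen with earlier results of these data known. The citrate cycle, which supplies NADH and succinate, had 6 of 17 genes called lower and 0 higher in SL against SS. Over all genes 3.77% were called lower and 7.06% higher. The median log2 change of the citrate cycle genes was -0.13, and all 17 estimates were below 0. Idh3a, a subunit of isocitrate dehydrogenase, fell by 0.23 (39.1 FPKM in SL and 45.9 in SS), and Mdh2, malate dehydrogenase, by 0.16 (63.5 FPKM in SL and 70.9 in SS). The other calls were Ogdh, Pdhb, Dlst and Cs, the citrate synthase. Cytochrome c (Cycs), the mobile carrier between complexes III and IV, was at 33.1, 38.1 and 37.9 FPKM in SL, against 43.6, 45.5 and 42.9 in SS, without overlap (-0.28, SE 0.07, limma adjusted p = 0.0276). Of 35 other assembly genes 1 was called lower, Timmdc1, a complex I assembly factor, and 0 were called higher. Of 27 genes for mitochondrial biogenesis and mitochondrial gene expression 0 were called by limma and 2 had an unadjusted p under 0.05, and the coactivator Ppargc1a was at 5.92 to 6.98 FPKM in SL, against 6.96 to 7.79 in SS (-0.16, SE 0.08).

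Some genes of glucose uptake and glycolysis were higher in the same SL libraries. Of 31 rows in the glycolysis and hypoxia list 7 were called higher and 0 lower in SL against SS. Over all genes 7.06% were called higher and 3.77% lower. The list's median was 0.02, however, and most glycolytic enzymes did not pass the test. Slc2a1, the glucose transporter of the blood-brain barrier and glia, was at 35.6, 33.2 and 35.6 FPKM in SL, against 21.7, 22.5 and 23.4 in SS, wholly apart (0.61, SE 0.05, limma adjusted p = 7.08e-06). Pfkfb3, which makes the activator of phosphofructokinase, rose by 0.86 (10.4 FPKM in SL and 5.48 in SS), the lactate exporter Slc16a3 by 1.27 (2.47 FPKM and 0.725) and hexokinase Hk2 by 0.69 (3.97 FPKM and 2.26). Hif1a, a transcription factor of the response to low oxygen and to inflammation, rose by 0.33, the mitophagy receptor Bnip3 by 0.25 and the astrocytic aldolase Aldoc by 0.25. Of 10 antioxidant genes 3 rose, the heme oxygenase Hmox1 by 1.90, the mitochondrial superoxide dismutase Sod2 by 0.48 and the glutathione peroxidase Gpx1 by 0.35. Of the 12 carrier and uncoupling genes tested 2 were called higher: the uncoupling protein Ucp2 rose by 0.46 and its brain homolog Slc25a27 by 0.28. Of 77 mitochondrial ribosome genes 1 was called, Mrpl41, higher by 0.36, with a median of -0.05. Of 76 cytosolic ribosome genes, also short and abundant transcripts, 2 were called higher and 0 lower, with a median of 0.05. In both ribosome lists calls were rarer than over all genes.

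**Figure D5:**
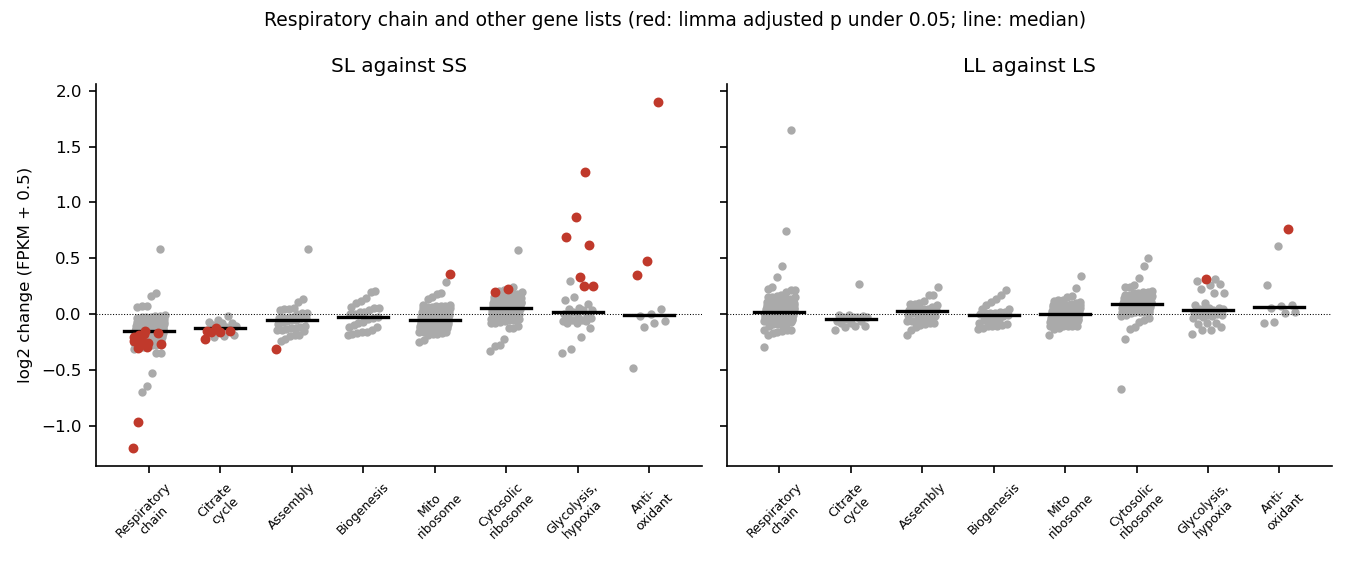
Log2 change of respiratory chain members and of genes in 7 other lists, for SL against SS and for LL against LS, with red points for limma calls and lines for list medians. In SL against SS the red points lie below 0 for the respiratory chain and citrate cycle and above 0 for the glycolysis and antioxidant lists, and in LL against LS few points are red.

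LS was set against SS to ask what a single early LPS dose left behind by day 15. Few members were called: limma called 1 of 104, Cox6b2, which is 0.962% of them. Of all genes 0.311% were called, 0.164% lower and 0.147% higher. Cox6b2 was at 2.71, 2.82 and 2.16 FPKM in LS, against 6.15, 5.12 and 4.45 in SS. The groups stand well apart, and the log2 change was -0.90 (SE 0.15, limma adjusted p = 0.0375). The call was lost in 12 of 24 other settings, among them without any single SS library, with adjusted p from 0.0293 to 0.665 and log2 changes from -1.01 to -0.67. Estimates were below 0 for 91 of 104 members, 87.5% of them against 48.7% of all genes, with a median of -0.12. In 29 members, 27.9% of them, every LS library lay below every SS library, where 8.63% of all genes did, and in 2 members every LS library lay above, where 9.36% of all genes did. At an unadjusted p under 0.05 there were 34 members (32.7%, against 12.6% of all genes). The short subunit genes at the low end were Atp5k, subunit e of complex V, at 26.8, 36.3 and 33.8 FPKM in LS, against 45.3, 85.3 and 63.7 in SS, with a log2 change of -0.96 (limma adjusted p = 0.0776), and Cox7c at 80.6, 104 and 102 FPKM in LS, against 116, 164 and 125 in SS (-0.49, limma adjusted p = 0.116). Both pairs of groups stand apart and neither gene passed the test. Limma voom on whole fragments called 7, including both of these.

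Mitochondrial genes were the class with the lowest median in LS against SS, at -0.23, close to nuclear complex IV at -0.20. The median over all nuclear members was -0.11. Limma called 0 of the 13 and limma voom 0, while 7 had an unadjusted p under 0.05, 12 estimates were below 0, and for 8 genes every LS library lay below every SS library. mt-Cytb was at 4185, 4492 and 4081 FPKM in LS, against 4845, 5350 and 4683 in SS, a log2 change of -0.22 (SE 0.09). mt-Nd4 was at 1798, 1904 and 1717 FPKM in LS, against 1994, 2409 and 2089 in SS, a log2 change of -0.26 (SE 0.08). Both have LS wholly below SS. LS replicate 3 held the lowest level of 8 of the 13, and without it the median was -0.19. SS replicate 2 held the highest level of 9, and without it the median was -0.16. The ribosomal RNA genes of the mitochondrial genome, which are no members, took 0.417% to 0.484% of fragments in LS, against 0.524% to 0.718% in SS, also without overlap. Quantile normalization sets the mitochondrial median to 0.00, with 6 of 13 estimates below 0, which cannot decide the question for genes that keep the top ranks. The median was -0.22 with median centring and -0.22 with scaling outside the mitochondrial chromosome.

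LL was set against LS to ask what LPS on day 14 did in pups that had met it on day 3. No member passed the test. Limma called 0 of 104 members, where 2.66% of all genes were called, while 14 had an unadjusted p under 0.05 (13.5%, against 13.4% of all genes) and limma voom called 1, mt-Nd4l. Estimates were below 0 for 44 and above 0 for 60 members, with a median of 0.02, so 42.3% lay below 0, where 51.4% of all genes did. The groups stood apart for 10 members with LL higher, where 11% of all genes did, and for 7.69% of members with LL lower, where 8.85% did. The class medians of the nuclear complexes lay between -0.03 and 0.05. The mitochondrial median was 0.13, with 11 of 13 estimates above 0. Quantile normalization sets it to 0.00, as it must for genes that keep the top ranks, and over the scalings used it reached 0.15. The mitochondrial median was 0.09 without LS replicate 3. mt-Nd4l was at 78.3, 115 and 161 FPKM in LL, against 68.4, 62.7 and 70.9 in LS, and the LL libraries spread widely (0.75, SE 0.20, limma adjusted p = 0.0822). Its chromosome 1 copy is identical over 294 bases, so this value is uncertain. The glycolysis and hypoxia list of 31 rows had 1 call higher and 0 lower. That was Slc2a1, at 25.9, 28.2 and 25.7 FPKM in LL, against 21.4, 20.5 and 21.8 in LS. Among 10 antioxidant genes 1 was called higher, and among 12 carrier and uncoupling genes 1 was called higher and 1 lower. The largest estimates in these 2 lists were 0.76 and 0.74. Citrate cycle genes, 17 in number, had 0 calls by limma and 4 with an unadjusted p under 0.05. Over all genes, 2.40% were called higher and 0.26% lower.

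LL against SL asks how far the earlier dose changed the state after LPS on day 14. Limma called 3 of 104 members higher and 0 lower, 2.88%, where 3.32% of all genes were called higher and 5.46% lower (8.79% in all), so the share is near the background. Cox6b2 was at 3.81, 2.92 and 4.16 FPKM in LL, against 2.38, 1.78 and 1.80 in SL (0.73, SE 0.15, limma adjusted p = 0.0112). Cox4i2 was at 1.74, 1.54 and 1.07 FPKM in LL, against 0.359, 0.790 and 0.492 in SL (0.90, SE 0.19, limma adjusted p = 0.0113). Sdhd was at 64.9, 60.4 and 61.7 FPKM in LL, against 52.5, 56.5 and 54.9 in SL (0.19, SE 0.05, limma adjusted p = 0.0375). In all 3 genes LL lay wholly above SL, and for Cox4i2 and Sdhd the LL values overlap those of SS. The Sdhd call was lost in 14 of 24 other settings. Estimates were above 0 for 74 members, with a median of 0.05. The 27 genes for mitochondrial biogenesis and mitochondrial gene expression had 1 call lower and 0 higher, a share below that of all genes. It was Pink1, a kinase that marks damaged mitochondria for removal, at 64.9 FPKM in LL against 81.6 in SL (-0.33). Of 31 rows in the glycolysis and hypoxia list 5 were called lower (Slc2a1, Pfkfb3, Slc16a3, Hif1a and Aldoc) and 1 higher (Vegfa, the vascular growth factor, by 0.66). Of 10 antioxidant genes 2 were called lower (Hmox1 and Sod2) and 1 higher (the quinone reductase Nqo1, by 0.70). The 7 called lower had log2 changes from -1.18 to -0.34.

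Both doses together, LL against SS, left the members slightly below the saline controls without a call. Limma called 0 of 104, where 2.41% of all genes were called. At an unadjusted p under 0.05 there were 19 (18.3%, against 12.4% of all genes), and limma voom called 1, Atp5k. Estimates were below 0 for 94 members, 90.4% against 51.2% of all genes, with a median of -0.11, and for 30 members every LL library lay below every SS library, 28.8% against 9.53% of all genes. Ndufaf8 was at 11.96, 10.4 and 12.02 FPKM in LL, against 12.8, 14.5 and 15.1 in SS (-0.29, limma adjusted p = 0.0819). Atp5k was at 30.2, 43.2 and 39.9 FPKM in LL, against 45.3, 85.3 and 63.7 in SS (-0.74, limma adjusted p = 0.109). Both pairs of groups are apart. The SL, LS and LL comparisons with SS share the same 3 SS libraries, among them the highest, so their medians are given side by side and not as separate support: -0.15 in SL, -0.12 in LS and -0.11 in LL over all members.

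Whether the response to the day 14 dose differed after an earlier dose was tested as an interaction, the LL minus LS difference less the SL minus SS difference. Limma called 2 of 104 members higher, 1.92%, where 2.14% of all genes were called higher and 3.19% lower (5.33% in all). Cox6b2 had an interaction of 1.63 (SE 0.21, limma adjusted p = 0.00105), with higher values in every LL library than in LS and lower values in every SL library than in SS. Cox8b, the isoform of subunit 8 typical of heart and skeletal muscle, had 2.18 (SE 0.55, limma adjusted p = 0.0455), at 1.45, 2.87 and 3.06 FPKM in LL, 0.956, 0.552 and 0 in LS, 0.786, 1.87 and 2.16 in SL, and 2.12, 2.90 and 2.26 in SS. These values rest on at most 26 fragments, and the call was lost in 14 of 23 other settings. The LS libraries low in Cox8b are also those lowest in the choroid plexus gene Ttr, and the Cox8b interaction was 0.52 with a choroid plexus term and 1.51 without LS replicates 2 and 3, neither of them called. That of Cox6b2 was 1.24 with the choroid plexus term, not called, and 1.56 without those libraries. Estimates were above 0 for 90 of the 104 members (13.5% lay below 0, where 52.1% of all genes did), with a median of 0.18 against -0.01 over all genes, and 32 members had an unadjusted p under 0.05 (30.8%, against 17.1% of all genes). Of 31 rows in the glycolysis and hypoxia list 3 had a called interaction, all negative: Slc2a1 (-0.30), Pfkfb3 (-0.87) and Slc16a3 (-1.01).

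Averaged over the first injection, LPS on day 14 lowered 5 of 104 members, 4.81%, where 2.50% of all genes were called lower and 6.37% higher (8.88% in all). Estimates were below 0 for 83.7% of members, where 52.1% of all genes were. The 5 were Cox4i2 by 0.50, Cox6b2 by 0.39, Atp5d by 0.20, Sdhb by 0.15 and Atp5b by 0.10 on the log2 scale. For Cox6b2 this averages estimates of opposite sign, -1.20 in SL against SS and 0.43 in LL against LS. The fall of Cox4i2 lay in SL against SS, with means of 0.547 and 1.55 FPKM, while LL and LS had means of 1.45 and 1.47. Atp5d was called in 22 of 23 other settings, and the count was 1 without SS replicate 2, LS replicate 2 or LL replicate 2, 2 without SL replicate 3, and 3 without SS replicate 1, SL replicate 1 or LL replicate 1. Averaged over the second injection, LPS on day 3 gave 0 calls by limma, where 5.74% of all genes were called, 3.62% lower and 2.12% higher, while 13 members had an unadjusted p under 0.05 (12.5%, against 18.4% of all genes) and limma voom called 3, Atp5k, Cox8a and Ndufa1.

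The tissue-specific isoforms that could be tested were at low level, and Cox8c and Cox7b2 were at or near 0. Cox6a2, the isoform of subunit 6a of heart and muscle, was at 5.41 to 6.86 FPKM in SL, 3.51 to 6.87 in LS, 3.92 to 5.42 in LL and 4.58 to 6.45 in SS. Cox7a1, its counterpart for subunit 7a, was at 0.679 to 3.00 FPKM in SL, 2.23 to 2.69 in LS, 2.37 to 2.63 in LL and 1.82 to 4.22 in SS. Ndufa4l2, a hypoxia-induced paralog of the complex IV subunit Ndufa4, was at 1.34 to 1.80 FPKM in SL, 1.17 to 2.40 in LS, 1.81 to 2.20 in LL and 1.63 to 1.72 in SS. None of these 3 was called by limma in any of the 8 comparisons, and their groups overlap in most pairs. By mean share of the pair, Cox6b2 made up 1.06% of its pair in SL, 1.33% in LS, 1.80% in LL and 2.30% in SS, and Cox4i2 0.203% in SL, 0.554% in LS, 0.545% in LL and 0.555% in SS. The mean share of Cox6b2 was lowest in SL and highest in SS, but neighbouring groups in this order overlap at each step. The highest share was 1.29% in SL, 1.54% in LS and 2.05% in LL, while the lowest was 1.123% in LS, 1.46% in LL and 1.91% in SS. For Cox4i2 the SL shares lie below those of the other groups, which overlap.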

How the data were processed

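Hippocampal RNA was sequenced in 12 animals, 3 per group. Per the submitters' processing notes, HISAT2 2.0.5, featureCounts 1.5.0-p3 and the mm10 build were used; for the strand setting and multi-mapping reads, nothing is given in the sources used here. The authors deposited 1 table of FPKM per gene. Its values came out as whole fragments, 100% of 309337 values above 0 within 0.01 of a whole number, which gave depths of 16979666 to 24105022 fragments and a test by limma voom. Precision is limited by 3 animals per group.

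log2(FPKM + 0.5) was tested with limma 3.58.1 (R 4.3.3, trended variance) for genes that reached 0.5 FPKM in 3 or more libraries. The fit had 4 group means and 8 residual degrees of freedom, with Benjamini-Hochberg adjustment over 17687 genes, in 8 comparisons. On simulated data of SL against SS, over genes of all levels and at a set dispersion of 0.01, it recovered 0% of 1.2-fold changes. It recovered 27.8% of 1.5-fold and 76.8% of 2-fold changes. Several members were called at changes smaller than 1.2-fold, so these rates do not hold for the members, most of which are abundant. With 3 animals per group an absent call does not show an absent change. Copies were found with blastn 2.17.0 (GENCODE vM21 transcripts). Members and lists were chosen with earlier results of these data known. Named were all mitochondrial genes, every called member, the 2 highest members per class and 6 isoform genes; Atp5k, Cox7c, Cox4i1, Cox6b1, Ndufa3, Ndufa12, Ndufb10, Ndufb2, Ndufab1 and Ndufaf2 were added after their values were seen. Alternatives covered pseudocount, filter, scaling, design, tool, a choroid plexus term and leaving out libraries.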

Additional observations from a re-analysis of the deposited data

Results flagged for a closer look

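The response to LPS on day 14 differed after an earlier dose for 2 members of complex IV, by the interaction term of the limma fit. That is 1.92% of the 104 members, where 2.14% of all genes were called higher, and with a choroid plexus term both calls were lost. All 15 choroid plexus markers had a called interaction themselves, so this term cannot separate choroid plexus content from the injections. Cox6b2 had an interaction of 1.63 on the log2 scale (SE 0.21, limma adjusted p = 0.00105; adjusted p from 0.000788 to 0.338 over 23 other settings, with a call in 22; 1.24 with the choroid plexus term). Cox8b had an interaction of 2.18 (SE 0.55, limma adjusted p = 0.0455; adjusted p from 0.0202 to 0.95 over 23 other settings, with a call in 9; 0.52 with the choroid plexus term), on 0 to 26 fragments per library.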

How the results depend on the processing

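Counts of members called depended on the setting. In SL against SS (14) the count was 26 with median centring, 6 without a filter and 6 with only the groups compared. In LS against SS (1) it was 7 by limma voom and 0 without a filter, with only the groups compared, with the choroid plexus term or without LS replicates 2 and 3. In LL against LS (0) it was 1 with a pseudocount of 1, a filter of 2 FPKM, scaling outside the mitochondrial chromosome, limma voom or the choroid plexus term. In LL against SL (3) it was 6 with quantile normalization or the choroid plexus term, 5 with median centring or scaling outside the mitochondrial chromosome, and 1 with only the groups compared. In LL against SS (0) it was 1 by limma voom. For the interaction (2) it was 1 with a pseudocount of 0.1 or no filter, 9 with quantile normalization, 7 with scaling outside the mitochondrial chromosome, 8 by limma voom, 4 with the choroid plexus term and 5 without LS replicates 2 and 3. For the second injection (5) it was 17 with median centring, 2 without a filter or with the choroid plexus term, and 1 without LS replicates 2 and 3. For the first injection (0) it was 2 with quantile normalization, 3 by limma voom or without LS replicates 2 and 3, and 5 with the choroid plexus term. The causes were not tested.

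Leaving out 1 library gave 3 to 19 calls in SL against SS, 0 to 2 in LS against SS, 0 to 2 in LL against LS, 1 to 3 in LL against SL, 0 to 2 in LL against SS, 1 to 4 for the interaction, 1 to 7 for the second injection and 0 to 2 for the first. Replicate numbers did not pair the animals (correlations of deviations from -0.070 to 0.096). With a replicate block the count was 15 in SL against SS, of which 11 are among the 14, 1 in LL against SS, 5 for the interaction and 1 for the first injection. The 25 pairs of gene and comparison called in the main fit were run under other settings. Of the 590 values obtained, 395 kept their call, 195 lost it and 0 changed sign. The pairs were picked by their call in largely the same data, so the unchanged signs say little about direction. Low genes such as Cox8b and Cox4i2 are limited by their fragments.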
